A study of Mus musculus with 6 samples.

Results

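The genes described here are Hmga1 and Hmga2, which encode chromatin proteins, and Igf2bp1, Igf2bp2, Igf2bp3 and Lin28b, which encode RNA-binding proteins. They were chosen by name and read from every probe of the array whose gene name in the scanner files is one of these 6 symbols, which gave 11 probes of 55681 and 6 gene names of 34797. Immortalized murine embryonic fibroblasts (MEF), cells grown out of mouse embryos and kept dividing in culture, were profiled on 1-colour mouse expression arrays to ask which RNAs depend on TIA1 and TIAR, a pair of related RNA-binding proteins. The 6 arrays fell into 3 groups of 2. WT MEF carried both genes and are labelled as strain W4, TIA1 KO MEF lacked TIA1 and are labelled as BALB/c, and TIAR KO MEF lacked TIAR (gene Tial1) and are labelled as C57BL/6. Each genotype is thus 1 cell line from another strain, so the effects of genotype, of strain and of the line itself cannot be told apart. The study states that the arrays of a group came from different biological samples, called independent experiments in its methods, and no source used here gives separate animals or lines within a group, so the p-values measure the spread between these samples only.

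HMGA proteins bind the minor groove of AT-rich DNA through AT-hook motifs and shape chromatin in growing embryonic cells. They are largely silent in adult tissues and return in many tumours. The IGF2BP family binds mRNAs in the cytoplasm and steers their stability, transport and translation, and LIN28B blocks the maturation of let-7 microRNAs. The let-7 family in turn represses Hmga2, Lin28b and the Igf2bp genes, which is why these genes are often described together as an oncofetal programme.

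The 60-base probe that gave the brighter Hmga2 signal contains a seed match of let-7, and this sequence is shown because let-7 regulation is what links most of these genes. The capitals mark the seed (bases 2 to 8) of the microRNA and, in the Hmga2 RNA, the 7 letters CTACCTC that pair with it.
mmu-let-7a-5p: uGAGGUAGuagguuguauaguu
Hmga2 probe window: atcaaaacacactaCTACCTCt
The window is the stretch of the probe opposite let-7a-5p, at chr10:119798747-119798768 (mm9, minus strand), and its pairing with let-7a-5p ran unbroken for 10 bases from base 2. In RefSeq (GRCm38.p6), 11 of 1679 mature mouse microRNAs shared this seed. CTACCTC was in 204 of 55681 probes (0.366%) and in 1 of the 11 probes described here. The arrays carried no probe named for let-7, so the microRNA itself was not measured. TIA1 and TIAR are known to bind U-rich RNA. A run of TTTTT was in 3 of the 11 probes, the second probes of Hmga2 and Igf2bp2 and the Igf2bp3 probe, against 10.2% of all probes. A probe covers only a small piece of its RNA, so these matches describe the probes and not binding sites.

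The 250 bases before a RefSeq start are shown for the 3 genes that passed the test in TIAR KO MEF. Both strands were searched for the core of the GC box, written GGGCGG. The same search covered a second promoter element, the binding site of NF-Y, written CCAAT. A further element was the E-box of MYC and USF factors, written CACGTG. The last was the binding site of the TATA-binding protein, written TATAAA. Matches are in capitals, and no matches overlapped.
Hmga1 promoter, chr17:27556324-27556573 (GRCm38.p6, plus strand): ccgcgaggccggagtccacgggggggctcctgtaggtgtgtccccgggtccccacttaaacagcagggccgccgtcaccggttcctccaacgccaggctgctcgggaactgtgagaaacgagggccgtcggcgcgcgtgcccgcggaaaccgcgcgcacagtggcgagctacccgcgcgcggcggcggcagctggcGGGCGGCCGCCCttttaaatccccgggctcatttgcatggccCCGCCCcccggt
Hmga2 promoter, chr10:120476470-120476719 (GRCm38.p6, minus strand): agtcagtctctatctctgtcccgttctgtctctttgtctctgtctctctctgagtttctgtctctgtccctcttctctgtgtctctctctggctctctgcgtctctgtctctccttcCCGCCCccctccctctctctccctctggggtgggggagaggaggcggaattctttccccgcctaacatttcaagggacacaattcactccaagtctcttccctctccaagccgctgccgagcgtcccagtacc
Igf2bp3 promoter, chr6:49214955-49215204 (GRCm38.p6, minus strand): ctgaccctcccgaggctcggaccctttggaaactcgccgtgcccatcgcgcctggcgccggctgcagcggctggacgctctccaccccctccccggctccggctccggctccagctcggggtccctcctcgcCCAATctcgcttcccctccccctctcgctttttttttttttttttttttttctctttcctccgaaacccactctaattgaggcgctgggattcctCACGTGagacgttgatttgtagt
The table holds a second Hmga1 start, whose stretch at chr17:27556354-27556603 had 4 matches of GGGCGG and 73.2% G and C. GGGCGG was found 3 times in the Hmga1 stretch shown, 1 time in the Hmga2 stretch and not in that of Igf2bp3. It was in 32.7% of 32851 mouse promoters of the same length. The Igf2bp3 stretch held 1 CCAAT, as did 33.8% of all promoters, and 1 CACGTG, as did 6.02%. TATAAA was in none of the 3 stretches and in 12.4% of all promoters. The G and C content was 72.8% for Hmga1, 56.4% for Hmga2 and 60.4% for Igf2bp3, against a median of 52.4%.

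All 6 arrays lay on 1 slide with 1 scan day. The TIA1 KO arrays lay in slide row 2 and the other 4 arrays in row 1, so the slide row and the TIA1 KO group cannot be told apart. The first TIA1 KO array stood apart, with a median spot intensity of 458 against 218 on the second and between 119.5 and 152 on the other 4 arrays. On the TIA1 KO arrays 16021 and 19996 probes were well above background, against 23569 and 26295 for WT and 24796 and 26011 for TIAR KO MEF. With so few arrays the precision is limited, and an exact permutation test of 2 against 2 arrays cannot go below p = 0.333, and the p-values below come from limma, fitted over all probes. Probes with an adjusted p (Benjamini-Hochberg) below 0.05 that also changed more than 2-fold are named called.

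The knocked-out genes were read first. For Tial1, the second-brightest probe was at log2 11.71 and 11.09 for WT, 11.85 and 11.49 for TIA1 KO, and 10.00 and 9.65 for TIAR KO, so both TIAR KO arrays were below the other 4. It fell by 1.58 ± 0.26 (log2, SE) in TIAR KO against WT MEF (adjusted p = 0.0254). The brightest Tial1 probe differed by -2.63 ± 0.87 and did not pass the test (adjusted p = 0.200), and its spot on the first WT array was left out as an outlier. The brightest Tia1 probe was at 10.72 and 8.54 for WT, 7.87 and 8.44 for TIA1 KO, and 9.56 and 9.58 for TIAR KO. Against WT, the 2 brighter Tia1 probes differed in TIA1 KO MEF by -1.47 ± 0.79 and -1.62 ± 0.42 (adjusted p = 0.288 and 0.116), and neither was called, so the arrays give only a weak check of that label. The third Tia1 probe, not well above background on the WT arrays, was higher by 0.87 (adjusted p = 0.149). Whether any of these probes lies in the deleted part of its gene is not given in the sources used here. None of the 8 Gapdh probes was called in any comparison.

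In TIAR KO MEF, Hmga2 and Hmga1 RNA fell and Igf2bp3 RNA rose against WT MEF, while Igf2bp1, Igf2bp2 and Lin28b were not called. The called Hmga1 probes may also detect its near-identical copy Hmga1b, as described below. A lower signal can come from less RNA in each cell or from fewer cells that make it, and these cannot be told apart in bulk RNA. Read from the brightest probe of each gene, 3 of 6 genes were called, against 5.76% of all probes (3.39% higher and 2.37% lower in TIAR KO MEF). In TIA1 KO against WT MEF, limma called 0 of 6 genes, against 3.54% of all probes (2.18% higher and 1.36% lower in TIA1 KO MEF), with 3 of 6 at an unadjusted p under 0.05. Over all probes 27.8% had such an unadjusted p in TIA1 KO against WT MEF, 20.2% in TIAR KO against WT MEF and 22.6% between the knockouts, and the counts of this kind given below are to be read against these shares. In TIA1 KO against WT MEF, scaling to a common median only called 4 of 6 genes and 15801 probes, 11.9% of them higher. Under that scaling every probe described here had the same SE, 0.482 in this comparison and 0.484 between the knockouts. In both comparisons, its calls and adjusted p-values below thus follow the size of a change and not the spread of a probe's own arrays. The 1969 probes called as reported in TIA1 KO against WT MEF changed strongly in number when 1 array was left out. The fit then took its spread from the other group alone. Without the first and the second WT array, Hmga2 was at 0.73 and 0.63, against 0.68 with all 4 arrays. Igf2bp3 was then at 0.999 and 1.06, against 1.03. Between the knockouts, 2 of 6 genes were called, Hmga1 and Hmga2, against 3.35% of all probes (1.72% higher and 1.63% lower in TIAR KO MEF). That count did not hold when either TIAR KO array was left out, where the spread came from the TIA1 KO arrays alone. Without the first and the second TIAR KO array, the brighter Hmga2 probe was at -2.66 and -2.71, against -2.69 as reported. The comparisons share arrays, so the values of each are given side by side and not combined.

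**Figure D1:**
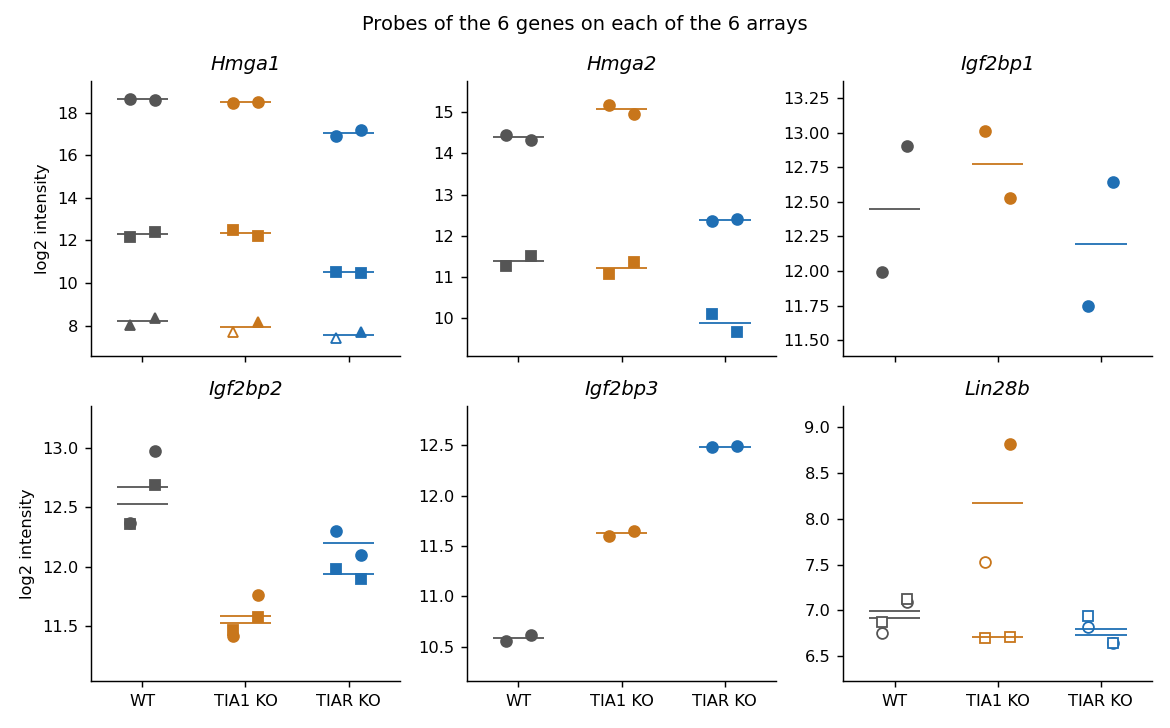
Log2 intensity (vertical axis, its range differing between panels) of every probe of the 6 genes on each array, by group. Circles are the brightest probe of a gene, squares the second and triangles the third, a short line is the mean of 2 arrays, and open symbols were not well above background; Hmga2 and the 2 brighter Hmga1 probes are lowest on both TIAR KO arrays, and Igf2bp3 is highest there.

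Hmga2 was measured by 2 probes on the minus strand of chromosome 10 (mm9). The brighter probe, at chr10:119798739-119798798 and starting at base 3708 of the transcript, was at 14.44 and 14.33 for WT, 15.18 and 14.95 for TIA1 KO, and 12.36 and 12.40 for TIAR KO. Both TIAR KO arrays were the lowest of the 6 and both TIA1 KO arrays the highest, with no overlap between any of the groups. Groups of 2 arrays do not overlap for many probes here, 49% of all in TIAR KO against WT MEF (21.9% higher, 27% lower), 65.2% in TIA1 KO against WT MEF (26% higher, 39.2% lower) and 59.9% between the knockouts (34.9% higher, 25% lower in TIAR KO MEF). The probe fell by 2.01 ± 0.14 on the log2 scale in TIAR KO MEF, a 4.02-fold decrease (95% confidence interval of the log2 change -2.36 to -1.65, adjusted p = 0.0017). It was called under all 16 alternatives tried for this comparison. In TIA1 KO MEF the change was 0.68 ± 0.17 (adjusted p = 0.113), not called, and it was -0.89 when the arrays were only scaled to a common median, a setting that moved the median of all probes from -0.09 to -0.67. The direction against WT MEF in TIA1 KO MEF is therefore not settled. Between the knockouts, the value in TIAR KO minus that in TIA1 KO MEF was -2.69 ± 0.17, a 6.43-fold lower signal (adjusted p = 0.0108). It was -1.58 and still called with scaling to a common median only, and -2.71 and not called with processed intensities (adjusted p = 0.0647).

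The second Hmga2 probe, at chr10:119800621-119800680 and 1882 bases nearer the start of the transcript, was at 11.27 and 11.50 for WT, 11.06 and 11.35 for TIA1 KO, and 10.09 and 9.66 for TIAR KO. Here too both TIAR KO arrays were below the others, while the WT and TIA1 KO arrays overlapped. It fell by 1.51 ± 0.20 in TIAR KO against WT MEF, 2.85-fold (adjusted p = 0.0137). It was called under 12 of the 16 alternatives. The call was lost without the second WT array (-1.39, adjusted p = 0.0556), without the second TIAR KO array (-1.297, adjusted p = 0.0582), with processed intensities (-1.98, adjusted p = 0.0863) and with treat, which tests against the 2-fold limit itself (adjusted p = 0.752). Against WT, the probe differed by -0.19 ± 0.19 in TIA1 KO MEF (adjusted p = 0.545). Scaled to a common median only, that value was -1.60 and called (adjusted p = 0.00558), so both Hmga2 probes were then below WT. Between the knockouts the second probe differed by -1.325 ± 0.23 (adjusted p = 0.0720), not called, and by -0.28 with that scaling. It was called among probes well above background, with all groups fitted together and with an intensity trend (adjusted p = 0.0354, 0.0260 and 0.0447). The 2 probes of Hmga2 thus moved the same way in TIAR KO MEF, while in TIA1 KO MEF their signs were opposite as reported and alike with that scaling. A probe for the pseudogene Hmga2-ps1, at chr1:178764768-178764827, was looked up after these values were seen. It was at 11.42 and 11.64 for WT, 11.68 and 11.62 for TIA1 KO, and 10.25 and 10.16 for TIAR KO. It differed from WT by -1.33 ± 0.15 in TIAR KO MEF (adjusted p = 0.00865). Whether that probe also binds Hmga2 RNA was not tested.

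Hmga1 was measured by 3 probes on the plus strand of chromosome 17. The brightest, at chr17:27700543-27700602, was at 18.62 and 18.61 for WT, 18.46 and 18.49 for TIA1 KO, and 16.92 and 17.16 for TIAR KO. Again the TIAR KO arrays stood below the other 4. It fell by 1.58 ± 0.16 in TIAR KO MEF, 2.98-fold (adjusted p = 0.00497), and differed by -0.14 ± 0.15 in TIA1 KO MEF (adjusted p = 0.549). With the processed intensities of the scanner software the change was -1.55 (adjusted p = 0.0880), no longer called. The second probe, at chr17:27696588-27696647, was at 12.18 and 12.42 for WT, 12.48 and 12.22 for TIA1 KO, and 10.51 and 10.49 for TIAR KO. It fell by 1.80 ± 0.16, 3.48-fold (adjusted p = 0.00316), and differed by 0.05 ± 0.19 in TIA1 KO MEF (adjusted p = 0.873). With scaling to a common median only, the brightest and second probes differed from WT in TIA1 KO MEF by -1.49 and -1.48, both called (adjusted p = 0.0104 and 0.0112). Both probes were lower in TIAR KO than in TIA1 KO MEF, with log2 differences of -1.44 ± 0.17 and -1.85 ± 0.17 (adjusted p = 0.0359 and 0.0228). Scaled to a common median only, these differences were -0.40 and -0.73 and not called.

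The RefSeq accessions that the array files list for these 2 probes belong to Hmga1 and to its near-identical copy Hmga1b, so RNA of either could give their signal. The third probe, whose accessions are of Hmga1 only, was dim. It was at 8.03 and 8.38 for WT, 7.73 and 8.19 for TIA1 KO, and 7.45 and 7.71 for TIAR KO, and on 1 of 2 arrays of each knockout it was not well above background. Its change in TIAR KO MEF was -0.63 ± 0.19 against WT (adjusted p = 0.142) and -0.38 ± 0.23 against TIA1 KO MEF (adjusted p = 0.381), neither called. The calls of Hmga1 thus rest on the 2 probes that may also detect Hmga1b. Against WT, the third probe was lower in TIAR KO MEF under all 16 alternatives, without a call. Several of these, such as treat and the intensity trend, left its change at -0.63 and could not alter its direction.

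The 10 other high-mobility-group genes found on the array were not called in any of the 3 comparisons. This list holds genes such as those of the Hmgb and Hmgn families, which encode nucleosome-binding and DNA-bending proteins outside the HMGA family, and no probe was found for Hmgn4. In TIAR KO MEF their changes ran from -0.74 to 0.59, with a median of 0.14 against -0.02 for all probes, and 2 of 10 had an unadjusted p under 0.05, as did 20.2% of all probes. In TIA1 KO MEF the changes ran from -0.69 to 0.38, with 1 of 10 at an unadjusted p under 0.05, against 27.8% of all probes. Between the knockouts 0 of 10 had such a p. Hmgb1, the most studied of these genes, was at 15.36 and 15.62 for WT, 15.37 and 15.88 for TIA1 KO, and 15.65 and 16.10 for TIAR KO. The TIA1 KO arrays overlapped both other groups, and the TIAR KO arrays lay just above the WT arrays, without a call.

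**Figure D2:**
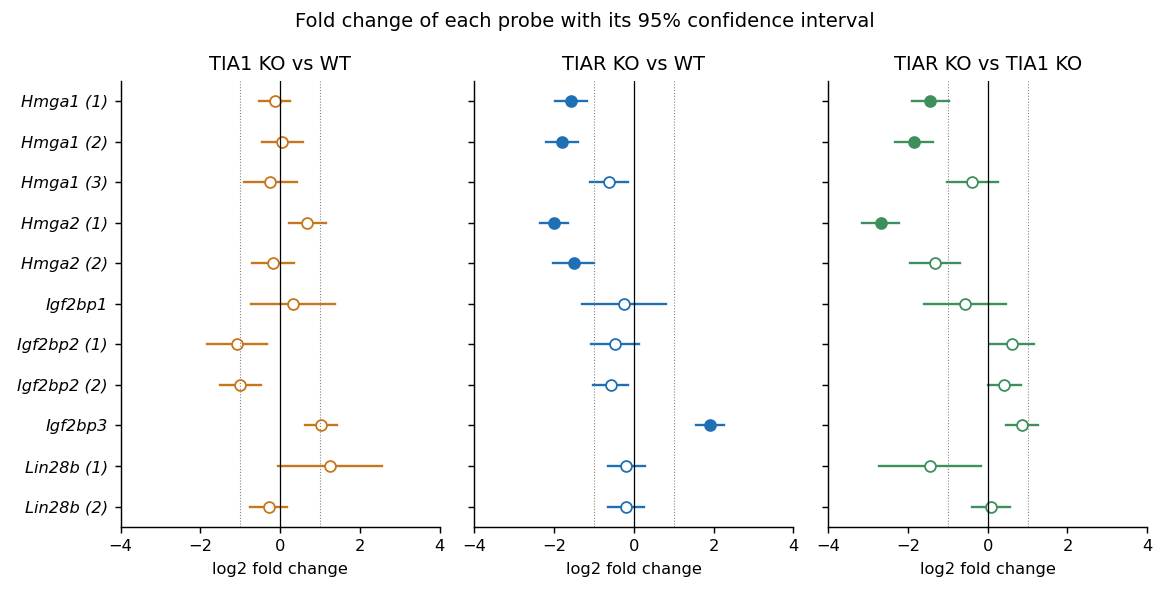
Log2 fold change of each of the 11 probes in the 3 comparisons (horizontal axis), with bars for the 95% confidence interval, filled points for called probes and dotted lines at a fold of 2. Numbers in brackets order the probes of a gene by brightness; the 4 called Hmga1 and Hmga2 probes lie between -2.01 and -1.51 in TIAR KO against WT MEF, and Igf2bp3 lies at 1.90.

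Among the RNA-binding genes, Igf2bp3 rose in TIAR KO MEF. Its probe, at chr6:49035710-49035769, was at 10.56 and 10.62 for WT, 11.60 and 11.65 for TIA1 KO, and 12.48 and 12.49 for TIAR KO. The groups were ordered WT, TIA1 KO, TIAR KO with no overlap, and the arrays of a group lay close together. The rise in TIAR KO MEF was 1.90 ± 0.14 on the log2 scale, or 3.73-fold (adjusted p = 0.00189), and it was called under all 16 alternatives. In TIA1 KO MEF the value was 1.03 ± 0.15 above WT (adjusted p = 0.0505), just outside the threshold. It was called under 4 of the 16 alternatives, in 1 of them without the second TIA1 KO array (adjusted p = 0.0274), and was -0.46 with scaling to a common median only. TIAR KO exceeded TIA1 KO MEF by 0.87 ± 0.15 (adjusted p = 0.0704), not called, and by 1.95 with scaling to a common median only, where it was called (adjusted p = 0.00133).

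Igf2bp2 is the member of its family best known for roles in metabolism and muscle. Its brighter probe, at chr16:22059260-22059319, was at 12.37 and 12.97 for WT, 11.42 and 11.76 for TIA1 KO, and 12.30 and 12.10 for TIAR KO. The TIA1 KO arrays were the lowest, with a difference from WT of -1.09 ± 0.28 (adjusted p = 0.115), and the TIAR KO arrays differed from WT by -0.48 ± 0.24 (adjusted p = 0.361), neither called. The second probe, 322 bases away at chr16:22059582-22059641, was at 12.36 and 12.69 for WT, 11.47 and 11.58 for TIA1 KO, and 11.98 and 11.90 for TIAR KO, the same order of groups. It differed from WT by -0.999 ± 0.19 in TIA1 KO MEF (adjusted p = 0.0790) and by -0.58 ± 0.17 in TIAR KO MEF (adjusted p = 0.132). Scaled to a common median only, the values in TIA1 KO MEF were -2.65 and -2.55 and both were called. Those in TIAR KO MEF were then -0.91, not called, and -1.0005, called (adjusted p = 0.0391). Between the knockouts, TIAR KO minus TIA1 KO MEF was 0.61 and 0.42 (adjusted p = 0.192 and 0.222), neither called. With that scaling these differences were 1.74 and 1.55, both called (adjusted p = 0.00544 and 0.0156). Without the second TIA1 KO array, the second probe differed from WT by -1.05 in TIA1 KO MEF.

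Igf2bp1, which binds the mRNA of beta-actin among others, had 1 probe, at chr11:95824526-95824585. It was at 11.99 and 12.90 for WT, 13.01 and 12.53 for TIA1 KO, and 11.75 and 12.64 for TIAR KO. The 3 groups overlapped, and the arrays of a group lay as far apart as the groups. The difference from WT was 0.32 ± 0.38 in TIA1 KO MEF (95% confidence interval -0.72 to 1.37) and -0.25 ± 0.42 in TIAR KO MEF (-1.299 to 0.81). The first interval holds a 2-fold rise and the second a 2-fold fall. Scaled to a common median only, the value in TIA1 KO MEF was -1.25 and called (adjusted p = 0.0365), so its direction is not settled.

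Lin28b was near background. Its first probe, at chr10:45096468-45096527, was at 6.75 and 7.09 for WT, 7.53 and 8.82 for TIA1 KO, and 6.82 and 6.64 for TIAR KO, and was well above background on the second TIA1 KO array only. The 2 TIA1 KO arrays were the highest but lay far apart. With each WT array set to its lowest signal well above background, or the probe's own if higher, TIA1 KO averaged 2.06-fold higher. That average includes the first TIA1 KO array, not well above background itself, so it is no lower bound for the group. The fitted difference of 1.26 ± 0.48 was not called (adjusted p = 0.189). It was 1.91 without the first TIA1 KO array and 0.61 without the second, so its size rests on the second. With scaling to a common median only it was 1.29 (adjusted p = 0.0299) and called. With processed intensities, where the median of all probes was 1.98, it was 5.4995 and not called. Between the knockouts the fitted difference was -1.45 (adjusted p = 0.188), not called. It was -1.42 with scaling to a common median only and -5.51 with processed intensities, both called (adjusted p = 0.0283 and 0.0448). Lin28b was the 1 member called between the knockouts with processed intensities. The probe was well above background on no WT or TIAR KO array, so none of these differences gives an exact size. The second Lin28b probe lay between 6.65 and 7.12 on all 6 arrays and was well above background on none of them. At this signal, no level of Lin28b RNA was detectable in WT and TIAR KO MEF.

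**Figure D3:**
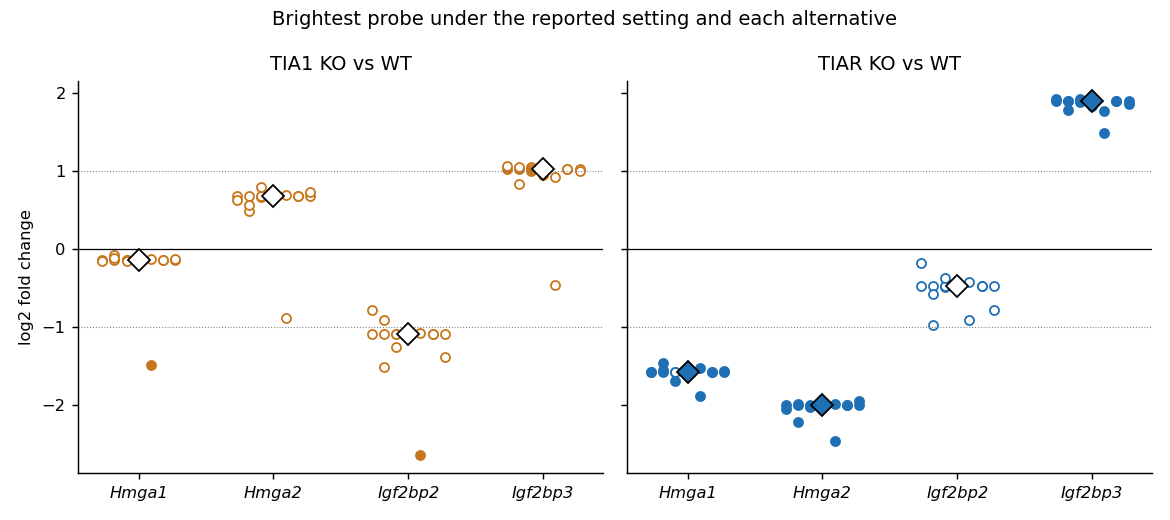
Log2 fold change (vertical axis) of the brightest probe of 4 genes against WT MEF, as reported (diamonds) and under each of 16 alternatives (circles), filled where called and with dotted lines at a fold of 2. In TIAR KO MEF the Hmga2 values lie between -2.46 and -1.95 and those of Igf2bp3 between 1.497 and 1.93, all called; in TIA1 KO MEF the lowest circle of each gene is the scaling to a common median.

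Genes that work with these 6 were taken from 7 lists of 78 genes, of which 77 were found. In TIAR KO against WT MEF, 12 of 77 were called, 10 higher and 2 lower, against 5.76% of all probes, and the median change was 0.08 against -0.02 for all probes. In TIA1 KO MEF 4 of 77 were called, 2 higher and 2 lower, against 3.54% of all probes, with a median of -0.08 against -0.09. Between the knockouts 6 of 77 were called, 5 higher and 1 lower in TIAR KO MEF, against 3.35% of all probes.

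Among the HMGA partners and regulated genes, 4 of 10 were called in TIAR KO MEF, against 5.76% of all probes, with a median of 0.25 over the list against -0.02 for all probes. Rb1, which encodes the retinoblastoma protein that HMGA2 binds, was at 11.06 and 10.89 for WT, 10.84 and 10.95 for TIA1 KO, and 9.26 and 9.49 for TIAR KO. It fell by 1.60 ± 0.16 in TIAR KO against WT MEF (adjusted p = 0.00541), and both TIAR KO arrays were below the rest. Jun, an AP-1 subunit, fell by 2.14 ± 0.41 (adjusted p = 0.0416), with TIAR KO arrays at 12.56 and 11.29 and WT arrays at 14.11 and 14.03. Snai1 and Snai2, transcription factors of epithelial-mesenchymal transition, rose by 1.49 ± 0.25 and 1.41 ± 0.22 (adjusted p = 0.0278 and 0.0209).

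The called genes of that list in TIA1 KO MEF were the cell-cycle inhibitor genes Cdkn2a (p16 and p19ARF) and Cdkn2b (p15), whose locus HMGA2 is known to repress in stem cells. Cdkn2a was at 15.64 and 15.62 for WT, 12.42 and 12.49 for TIA1 KO, and 16.01 and 16.22 for TIAR KO. The TIA1 KO arrays were far below the other 4, and against WT it fell by 3.18 ± 0.15, or 9.05-fold (adjusted p = 0.00582). Cdkn2b was at 12.16 and 12.59 for WT, 10.67 and 10.41 for TIA1 KO, and 12.76 and 12.76 for TIAR KO. It fell by 1.84 ± 0.23 in TIA1 KO MEF (adjusted p = 0.0392). In TIAR KO MEF, Cdkn2a and Cdkn2b differed from WT by 0.48 and 0.39, neither called. A link of these values to Hmga2 was not tested. Between the knockouts, Cdkn2a and Cdkn2b were higher in TIAR KO MEF by 3.66 and 2.22 (adjusted p = 0.0075 and 0.0158), and Rb1 differed by -1.52 (adjusted p = 0.0334).

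Of 16 genes of let-7 maturation and silencing, 2 were called in TIAR KO MEF, both higher, against 3.39% of all probes called higher, and limma called 0 in TIA1 KO MEF, where 7 of 16 had an unadjusted p under 0.05, against 27.8% of all probes. Trim71, the let-7-regulated ubiquitin ligase and RNA-binding protein of early development, was at 6.94 and 7.39 for WT, 6.36 and 6.98 for TIA1 KO, and 9.65 and 9.70 for TIAR KO. It was well above background on the TIAR KO arrays only, at least 5.24-fold higher than in WT MEF (adjusted p = 0.00227) and at least 4.50-fold higher than in TIA1 KO MEF (adjusted p = 0.0192). Prkra, a partner of Dicer, rose by 1.26 ± 0.15 (adjusted p = 0.0103). Dicer1, Drosha, Dgcr8 and Xpo5, the core of microRNA processing and export, were called in none of the comparisons. Of these, Dicer1 was 1.03 ± 0.15 above WT in TIA1 KO MEF (adjusted p = 0.0518), just outside the threshold.

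Of 21 other let-7 target genes, 2 were called in TIAR KO MEF, both higher and none lower, against 3.39% and 2.37% of all probes, while 16 of 21 had an unadjusted p under 0.05 (20.2% of all probes did), 7 higher and 9 lower, with a median of -0.14 against -0.02 for all probes. Il6, a cytokine gene, was at 7.47 and 7.61 for WT, 6.84 and 7.10 for TIA1 KO, and 9.25 and 9.11 for TIAR KO. It was well above background on 1 of 2 WT arrays and none of TIA1 KO, rose by 1.64 ± 0.15 against WT (adjusted p = 0.00381) and was at least 3.07-fold higher than in TIA1 KO MEF (adjusted p = 0.0172). Mycn was at least 1.97-fold higher in TIAR KO than in WT MEF (adjusted p = 0.0128), near background in the latter. The insulin-signalling adaptor gene Irs2 was the 1 called target in TIA1 KO MEF, 1.32 ± 0.15 higher (adjusted p = 0.0327). The growth genes Myc and Ccnd1 were not called in any comparison.

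The RNAs that IGF2BP proteins bind and the proteins found with them gave no calls, 0 of 7 and 0 of 6 in each comparison by limma. Of the bound RNAs, 2 of 7 in TIA1 KO MEF, 1 of 7 in TIAR KO MEF and 2 of 7 between the knockouts had an unadjusted p under 0.05, near the 27.8%, 20.2% and 22.6% of all probes. Of the partners, 2 of 6 in TIA1 KO MEF had one. The brightest probes of Igf2 and H19, imprinted RNAs that the family binds, were not well above background on any array, and the dimmer H19 probes were not read. Actb was between 18.67 and 18.91 on the 6 arrays. Elavl1, which encodes HuR, was between 15.09 and 15.45, and Cd44 differed by -1.16 in TIAR KO MEF (adjusted p = 0.131).

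Of 7 other oncofetal genes, 4 were called in TIAR KO MEF, all higher, against 3.39% of all probes called higher, with a median of 1.04 over the list against -0.02 for all probes. Ptn, a growth factor of developing tissue, was at 7.27 and 6.90 for WT, 8.25 and 8.80 for TIA1 KO, and 14.05 and 13.82 for TIAR KO. It was not well above background on 1 WT and 1 TIA1 KO array. It rose by 6.85 ± 0.19 against WT (adjusted p = 0.000189) and by 5.41 ± 0.25 against TIA1 KO MEF (adjusted p = 0.00752). Afp, the fetal serum protein gene, rose by 1.303 ± 0.14 (adjusted p = 0.00672), with signals between 7.50 and 8.88, and Gpc3 was at least 1.83-fold higher (adjusted p = 0.0192). Tpbg, the trophoblast glycoprotein gene, rose by 1.21 ± 0.16 in TIAR KO MEF (adjusted p = 0.0138) and by 1.53 ± 0.19 in TIA1 KO MEF (adjusted p = 0.0393).

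**Figure D4:**
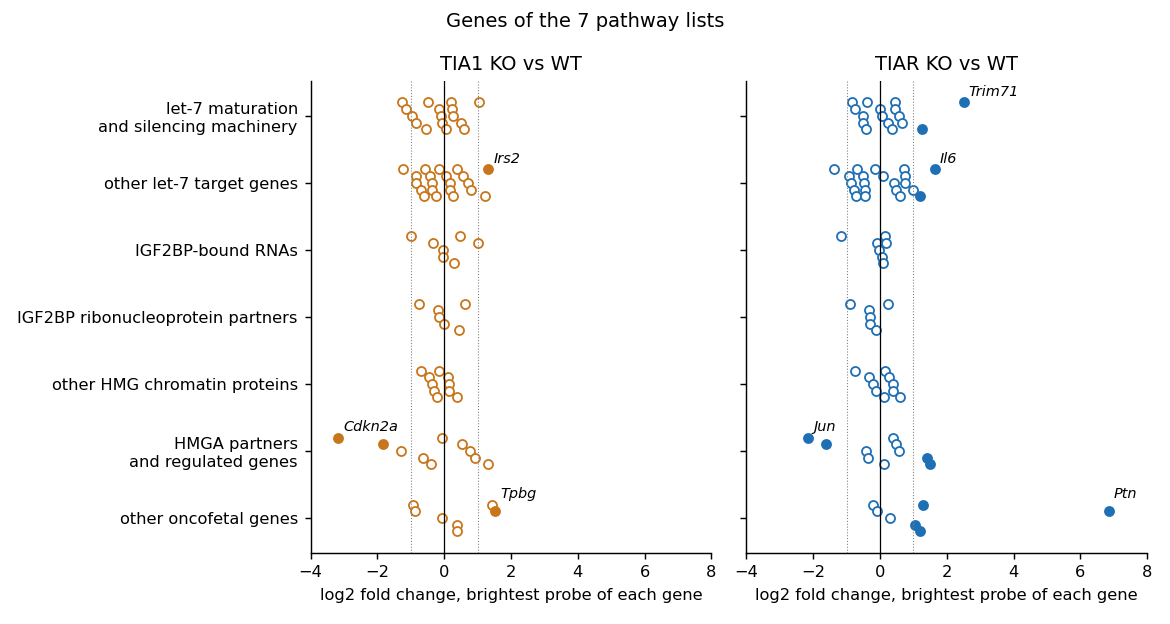
Log2 fold change against WT MEF (horizontal axis) of the 77 genes of 7 lists, with TIA1 KO on the left and TIAR KO on the right. Each point is the brightest probe of a gene, filled where called, dotted lines mark a fold of 2, and the called gene with the largest change of each list is named; Cdkn2a lies at -3.18 in TIA1 KO MEF and Ptn at 6.85 in TIAR KO MEF.

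The cells were compared with markers of fibroblasts and of other cell types, since the cell lines may differ in kind. Of 10 fibroblast markers, 7 were called higher in TIAR KO than in WT MEF, against 3.39% of all probes, and 5 were called higher in TIA1 KO than in WT MEF, against 2.18%, and none was called lower. Their summed linear signal was 532900 and 566700 for WT, 1265000 and 1238000 for TIA1 KO, and 1304000 and 1261000 for TIAR KO, with the brightest probe that of S100a4 on the WT arrays and of Col1a2 or S100a4 on the others, a rank of probe signals and not of RNA amounts. Pdgfra, Fap and Postn were not well above background on either WT array, and Fap on none of the 6 arrays. Vim, the intermediate filament gene of mesenchymal cells, was between 17.24 and 17.89 on the 6 arrays. Their part in the changes of Hmga1, Hmga2 and Igf2bp3 was not tested. Of the pluripotent and germ cell markers 0 of 6 were called against WT by limma in either knockout, with 4 of 6 at an unadjusted p under 0.05 in TIA1 KO MEF and 0 of 6 in TIAR KO MEF, against 27.8% and 20.2% of all probes. Dppa3, Zfp42 and Ddx4 were not well above background on any array. Ptprc, the pan-leukocyte gene, and Cdh5, an endothelial one, were not well above background on any array. Of 6 epithelial markers 3 were called higher in TIAR KO than in WT MEF, Krt18, Krt8 and Cdh1, against 3.39% of all probes. The median over that list was 0.87, and Epcam was not well above background there. Krt8 and Krt19 of that list and Itgam of the 5 haematopoietic markers were called higher in TIA1 KO than in WT MEF, against 2.18%. The median over the haematopoietic list was -0.33 in TIA1 KO MEF, though, and none of the 4 endothelial markers was called.

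The genes whose pattern was most like that of the brighter Hmga2 probe were looked for among 2085 genes whose values varied by an SD of at least 1 log2 unit. The 5 nearest had Pearson correlations between 0.996 and 0.999 with it over the 6 arrays. These describe 6 arrays in 3 groups, in which the difference between groups sets the correlation, and they carry no test. Tle1, a Groucho corepressor gene, was at 11.95 and 11.99 for WT, 12.66 and 12.54 for TIA1 KO, and 10.01 and 10.01 for TIAR KO. Cdkn1a, which encodes the cell-cycle inhibitor p21, was at 12.37 and 12.42, at 13.24 and 13.17, and at 10.14 and 10.38 in the same order. The growth factor gene Hbegf was at 14.13 and 14.07, at 14.92 and 14.79, and at 12.30 and 12.03. These 3 genes were lower in TIAR KO MEF by sizes near that of Hmga2, with differences from WT of -1.96, -2.14 and -1.93. G6pc3, a glucose-6-phosphatase gene, and Fgf7, the keratinocyte growth factor gene, had the same order of groups with wider differences, -3.79 and -4.71. The 2 brighter Hmga1 probes had correlations of 0.941 and 0.969 with Hmga2, and Igf2bp3 had one of -0.682.

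**Figure D5:**
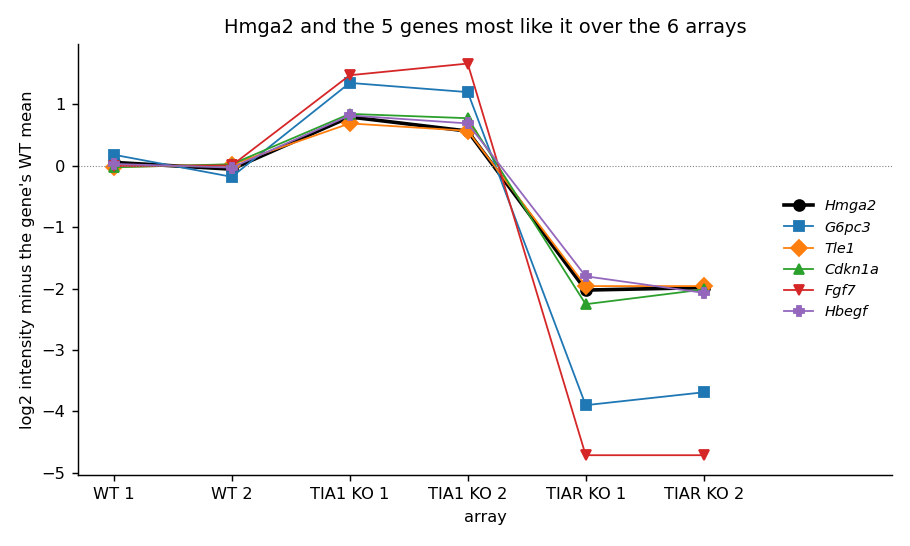
Log2 intensity of Hmga2 and of the 5 genes most like it on each array, minus the mean of the 2 WT arrays of the same gene (vertical axis), with lines joining the arrays of 1 gene. The genes were chosen for this pattern; all 6 are highest on the TIA1 KO arrays and lowest on the TIAR KO arrays.

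The normalized log2 table that the authors deposited was read for the same probes. The brighter Hmga2 probe was at 14.56 and 14.43 for WT, 15.31 and 15.06 for TIA1 KO, and 12.48 and 12.52 for TIAR KO of that table, the same order of groups as above. With those values limma called the same 3 genes in TIAR KO against WT MEF, Hmga1 (-1.525), Hmga2 (-1.995) and Igf2bp3 (1.77), and the same 2 genes between the knockouts. In TIA1 KO against WT MEF it called 0 of 6, with Igf2bp3 at 0.92 (adjusted p = 0.0843).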

How the data were processed

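Total RNA of 6 samples (200 ng each) was labelled with Cy3 and hybridized to Agilent mouse arrays. The authors deposited spot intensities of the scanner software, not normalized between arrays, with probe positions on mm9, and a table of normalized log2 values. For normalized values the study's methods name normexp background correction (offset 50), log2, loess on each array and matched quantiles, the steps followed here, and the values of the table correlated with those used here at 0.997 to 0.9995 per array. The submitters' processing notes name limma.

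Mean intensity and median local background were corrected by normexp (offset 50), then log2 values were fitted by loess to the average of the arrays and quantile normalized. Control and outlier spots were left out and spots of a probe averaged. Limma models (lmFit, then eBayes) used only the 4 arrays of a comparison and covered 55681 probes. Calls needed an adjusted p (Benjamini-Hochberg) below 0.05 and a change of more than 2-fold. A gene was read from its brightest probe. The scanner software's rating decided which spots were well above background, and a probe needed 50% of its spots rated so. The fit was tested on simulated data.

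The genes, the lists and the genes named from them (up to 4 called genes with the largest change per list and comparison, and 5 genes most like Hmga2) were chosen with earlier results of these data known. Other genes of the lists, Hmga2-ps1 and the marker genes named singly were picked after their values were seen. RefSeq matched the accessions of all 11 probes, and promoters were matched by symbol for 5 of 6 genes, all but Igf2bp1. Alternatives were other intensities, offset (16), normalizations, filters, variance models and call rules, the replicate number as a block, and leaving out each array. R 4.3.3, limma 3.58.1, the data.table package (version 1.17.8), Python 3.11.15, pandas 2.3.3, numpy 2.4.6 and matplotlib 3.10.9 were used.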

Additional observations from a re-analysis of the deposited data

Results flagged for a closer look

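The same contrast with WT MEF gave different values in the knockouts for 3 probes, by limma's direct test of TIAR KO against TIA1 KO MEF: Hmga2 (brighter probe) differed by -2.69, and the 2 brighter Hmga1 probes by -1.44 and -1.85, on the log2 scale. The arrays of the knockouts did not overlap for any of these probes, as for 59.9% of all probes (25% lower in TIAR KO MEF). The probes were picked as called, so this adds no support to the calls. These calls were lost without either TIAR KO array, where the 3 differences stayed between -2.71 and -1.32 and no probe of the array was called. Strain, cell line, slide row and genotype cannot be told apart in these differences. All 3 calls were also lost with processed intensities (adjusted p = 0.0647, 0.0695 and 0.0695), and both Hmga1 calls with treat. The replicate block ended all 3 as well (adjusted p = 0.0713, 0.131 and 0.101). An offset of 16 ended the call of the brightest Hmga1 probe (adjusted p = 0.0513). Scaled to a common median only, the Hmga1 differences were -0.40 and -0.73 and not called.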

How the results depend on the processing

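Of 521 fold changes under an alternative, 458 kept their direction and their side of the threshold. For Hmga2, Hmga1 and Igf2bp3 in TIAR KO against WT MEF, 3 of 3 directions held under all 16 alternatives, and 3 member genes were called under all but the processed intensities and treat, with 2 each (Hmga1 not). Several alternatives, such as treat, the intensity trend and the replicate block, left the fold changes as reported and could not alter a direction. The cause of the differences below was not tested.

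Processed intensities gave 0 probes and 0 pathway genes called in TIA1 KO against WT MEF, with a median of 1.98 over all probes. In TIAR KO they gave 2526 probes and 7 pathway genes. Between the knockouts they gave 1509 probes, 1 member gene and 2 pathway genes, with Hmga2 at -2.71 (adjusted p = 0.0647). They reversed, in TIA1 KO, the 2 dimmer Hmga1 probes (-0.28, 0.80), Igf2bp1 (-0.31) and the second Lin28b probe (2.96, and -3.25 between the knockouts). Scaling to a common median gave 15801 probes, 4 member genes and 45 pathway genes in TIA1 KO (11.9% of calls higher against 61.6% as reported), 34.4% higher against 58.8% in TIAR KO, and 8307 probes, 4 member genes and 29 pathway genes between the knockouts (87.2% against 51.3% higher). It reversed, in TIA1 KO, Hmga2 (-0.89), the second Hmga1 probe (-1.48), Igf2bp1 (-1.25, and 0.55 between the knockouts) and Igf2bp3 (-0.46). Its member calls in TIA1 KO and between the knockouts rest on 1 SE shared by all member probes, as given above.

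In TIA1 KO, 1 member gene was called among probes well above background, with all groups fitted together and with an intensity trend. Pathway genes called were 8, 9 and 7, against 2949 of 23442, 3986 of 55681 and 2273 of 55681 probes in the same order. Treat called 440 probes and 1 pathway gene in TIA1 KO, 1016 and 2 in TIAR KO, and 409, 1 member gene and 2 pathway genes between the knockouts. The authors' table gave 1293 probes and 2 pathway genes in TIA1 KO. Between the knockouts, an offset of 16 called 1 member gene and 1543 probes. Probes well above background gave 2925 calls there, and all groups together 3183 probes and 10 pathway genes. Control spots without weight in loess, an alternative chosen after seeing the data, changed no member's call.

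The replicate numbers did not pair the arrays (correlations of 0.078, 0.030 and -0.073). With the replicate block, 671 probes and 1 pathway gene were called in TIA1 KO, and 0 probes, 0 member genes and 0 pathway genes between the knockouts, where Hmga2 was at -2.69 (adjusted p = 0.0713).

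Leaving out each array in turn gave 0 to 10735 probes, 0 to 1 member genes and 0 to 19 pathway genes in TIA1 KO (0 probes without either WT array, 10735 without the second TIA1 KO array, 3060 without the first), with Hmga2 at 0.56 to 0.80. In TIAR KO it gave 2317 to 2795 probes, 3 to 3 member genes and 8 to 10 pathway genes, with Hmga2 at -2.06 to -1.95. Between the knockouts it gave 0 to 10087 probes, 0 to 3 member genes and 0 to 18 pathway genes (0 without either TIAR KO array), with Hmga2 at -2.80 to -2.57. The second Hmga1 probe ran from -0.0803 to 0.18 and Igf2bp1 from -0.14 to 0.78 in TIA1 KO, Igf2bp1 from -0.71 to 0.21 in TIAR KO, and the second Lin28b probe from -0.0597 to 0.23 between the knockouts. The lone array left in a group was assumed to vary like the other group.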
